A study of Homo sapiens with 24 samples.

Results

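The genes followed here belong to the immunoproteasome and to the MHC class I pathway: PSMB8, PSMB9, PSMB10, PSME1, PSME2, TAP1, B2M, HLA-B and HLA-C. They were chosen by name, with earlier results of these data known. All 9 had a row among the 18915 genes of the count matrix. A filter on low counts kept 12685 genes for testing, among them 8 of the 9. The gene left out was PSMB10.

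The cells were HepG2, an established human hepatoma line, kept in complete growth medium and treated for 10 h. The 6 groups were DMSO vehicle, 50 nM ISRIB, 20 µM nelfinavir (Nelf), 50 nM bortezomib (Btz), Btz with Nelf, and Btz with ISRIB at the same doses, with 4 libraries each that the labels call biological replicates. Bortezomib blocks the chymotrypsin-like site of the proteasome, nelfinavir is an HIV protease inhibitor that also activates the integrated stress response, and ISRIB reverses the effect of eIF2α phosphorylation on translation. All groups share 1 cell line, and no gene was edited. Levels are given as CPM, the reads at a gene's 3′ end per 1000000 reads of the TMM-scaled library. Fold changes come from the quasi-likelihood test of edgeR, with p-values adjusted by Benjamini and Hochberg over all tested genes. A gene is called below where its adjusted p was under 0.05.

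The proteasome degrades ubiquitinated proteins through catalytic β subunits. Under interferon signalling, the standard catalytic subunits PSMB6, PSMB7 and PSMB5 can be replaced in new particles by PSMB9, PSMB10 and PSMB8, which form the immunoproteasome, and its output is fed by the PA28 activator made of PSME1 and PSME2. Peptides are carried into the endoplasmic reticulum by the TAP1-TAP2 transporter and loaded onto HLA heavy chains paired with β2-microglobulin, the product of B2M, for display to cytotoxic T cells. Inflammatory cytokines raise these genes in liver cells.

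Total counts ran from 5154533 to 6943164 per library, and that number limits the precision for rare transcripts. TMM factors were 1.16 to 1.24 in libraries without bortezomib and 0.786 to 0.869 in those with it, and the share of mitochondrially encoded genes was 21.5% ± 1.32 with DMSO, 33.8% ± 1.20 with Btz, 27.2% ± 2.26 for Btz with Nelf and 36.1% ± 3.13 for Btz with ISRIB (SD, n = 4 each). Scaling by library totals alone moved the median log2 fold change of all tested genes down in each comparison that adds bortezomib, to −0.49 for Btz against DMSO, −0.55 for Btz with Nelf against Nelf and −0.51 for Btz with ISRIB against ISRIB. All 10 hepatocyte markers, such as ALB and APOA1, were above 1 CPM, with a summed level of 13431 to 15008 CPM in DMSO, 10275 to 10874 CPM in Btz, 6778 to 8721 CPM in Btz with Nelf and 9501 to 11095 CPM in Btz with ISRIB. Of 11 leukocyte markers only CD74 and LYZ passed 1 CPM, the list's sum was 457 to 557 CPM in DMSO and 196 to 270 CPM in Btz, and PTPRC and CD3E had no row. The part of these shifts in the results below was not tested.

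PSMB8, PSMB9 and TAP1 lie side by side in the class II region of the MHC. On GRCh37, the build of the counts, PSMB8 spans chr6:32808494-32812456 on the minus strand, TAP1 chr6:32812986-32821593 on the minus strand, and PSMB9 chr6:32811913-32827628 on the plus strand. The start sites of the canonical TAP1 and PSMB9 transcripts face away from each other, 488 bp apart. The class I genes HLA-C at chr6:31236526-31239907 and HLA-B at chr6:31321649-31334844 are on the minus strand of the same chromosome. PSME1 at chr14:24605372-24608176 and PSME2 at chr14:24612571-24616779 are neighbours on opposite strands, B2M is at chr15:45003556-45011049 and PSMB10 at chr16:67968409-67970767.

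Because these genes are known as interferon targets, the letters of the interferon-stimulated response element core (GAAANNGAA, both strands) were searched in the RefSeq promoter windows, 250 bases before to 50 after each start. All 9 genes matched the RefSeq table (GRCh38.p14) with 11 windows, and the 250 upstream bases of each window were found once on GRCh37, which gave the positions printed. The core was in a window of 6 of the 9 genes, against 8.11% of all 35116 windows in the table. The stretches below are the ones that hold it, each printed 5′ to 3′ along its gene with the matched letters in capitals, and B2M and TAP1 each also hold an NF-kB match (GGGNNTTTC, in 4.78% of all windows), which is in capitals too. In TAP1 and in B2M a pair of core matches overlap each other.
TAP1, far end of the window, chr6:32821594-32821731, minus strand: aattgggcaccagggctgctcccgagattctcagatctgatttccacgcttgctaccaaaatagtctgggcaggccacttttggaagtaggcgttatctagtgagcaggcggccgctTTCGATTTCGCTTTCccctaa
TAP1, NF-kB match nearer the start, chr6:32821535-32821563, minus strand: gcctgttcctGGGACTTTCcgagagcccc
B2M, chr15:45003570-45003599, plus strand: aGAAAAGGAAACTGAAaacggGAAAGTCCC
PSMB8, chr6:32811808-32811837, minus strand: atctgtggctTTCGCTTTCacttcctcctc
PSMB10, chr16:67970755-67970784, minus strand: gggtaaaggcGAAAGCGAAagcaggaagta
PSME1, chr14:24605399-24605428, plus strand: ccctaccgctTTCGCTTTCccttcgcggtg
PSME2, chr14:24615828-24615857, minus strand: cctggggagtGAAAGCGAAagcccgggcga

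PSMB8, PSMB10, PSME1 and PSME2 hold the same 9 letters, read on one strand or the other, and so does 1 of the TAP1 pair. PSMB9, on the far side of the interval it shares with TAP1, held neither match in its own window, and the TAP1 pair lies outside that window. The stretch upstream of PSMB9 is shown for comparison, with an antioxidant response element match (TGACNNNGC, in 13.3% of all windows) in capitals.
PSMB9, chr6:32821719-32821924, plus strand: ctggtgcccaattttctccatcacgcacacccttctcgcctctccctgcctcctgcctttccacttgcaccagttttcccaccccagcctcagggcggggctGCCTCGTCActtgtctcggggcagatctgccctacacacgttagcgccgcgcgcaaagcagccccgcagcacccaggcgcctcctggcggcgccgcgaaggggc

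The same antioxidant letters were in the windows of PSME1 and PSME2. The GAS letters (TTCNNNGAA, in 7.66% of all windows) were in a window of PSMB8 and a second window of TAP1. HLA-B and HLA-C held none of the 7 motifs searched, and no window of the 9 genes held the CRE (TGACGTCA, 1.85%), the C/EBP-ATF element (TGATGNAA, 3.62%) or a heat shock element pair (GAANNTTC, 6.77%). A match is a description of letters and was not tested as a binding site. Only these fixed letters were searched, so a window without a match may still hold a variant of an element.

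The first question was how bortezomib alone changed these genes. After 10 h, 5 of the 8 tested genes fell and 2 rose, so the inducible proteasome genes and the HLA heavy chains went in opposite directions. PSMB8, PSMB9, PSME1, PSME2 and TAP1 were lower and HLA-B and HLA-C higher than in DMSO. Of all 12685 tested genes, 25.8% were called lower and 27.6% higher. With library totals as the only scaling that split was 49.4% lower and 11.7% higher, so the balance of directions rests on the scaling. Among the members, the median log2 fold change was −0.42, beside 0.0017 over all tested genes. In these bulk cultures, fewer cells of one state and less RNA per cell cannot be told apart.

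PSMB8, the inducible counterpart of the chymotrypsin-like subunit PSMB5, stood at 12.7, 13.7, 15.4 and 15.4 CPM in the DMSO libraries and at 4.92, 5.24, 8.87 and 5.62 CPM in the Btz libraries. The groups did not overlap, and the third Btz library was the highest of its group. The log2 fold change was −1.21 (SE 0.218, adjusted p = 1.8e-05), a 2.32-fold fall.

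PSMB9, the inducible counterpart of PSMB6, was rare, with 32, 22, 30 and 16 reads in the DMSO libraries and 0, 3, 6 and 2 reads in the Btz libraries. Its level was 1.96 to 4.2 CPM in DMSO and 0 to 1.27 CPM in Btz, again without overlap. The fitted log2 fold change was −2.43 (SE 0.561, adjusted p = 0.00044), whose 95% interval of −3.57 to −1.29 was the widest of the members tested.

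PSMB10, the inducible counterpart of PSMB7, could not be compared. It had at most 2 reads in any library, with group sums of 2 in DMSO, 2 in ISRIB, 3 in Nelf, 0 in Btz, 1 in Btz with Nelf and 0 in Btz with ISRIB. A group sum of 0 allowed a level of up to 0.156 CPM in Btz, taking 3 reads over the group and counting error only. At its 3′ end, 319 bases are shared at 100% identity with ENSG00000261884, a gene on the same strand with a row of its own, which had 1 read in all 24 libraries. Whether reads of PSMB10 were lost in this way was not tested.

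PSME1 and PSME2 encode the α and β subunits of the PA28 activator. PSME2 was at 136, 143, 141 and 139 CPM in DMSO and at 68.4, 88.2, 70.6 and 85.6 CPM in Btz. All Btz libraries were below all DMSO libraries, and the log2 fold change was −0.84 (SE 0.101, adjusted p = 1.7e-08). PSME1 had 147, 123, 132 and 129 CPM in DMSO against 125, 91.9, 106 and 107 CPM in Btz. There the groups overlapped by a single library, and the fall was smaller, at −0.31 (SE 0.0879, adjusted p = 0.0039). The 3′ ends of PSME2 pseudogenes resemble PSME2, with up to 97.3% identity over 452 bases for PSME2P2, so the PSME2 level carries that uncertainty. EMC9, on the opposite strand, overlaps the 3′ end of PSME1, and how the counting treated strand is not stated.

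TAP1, one of the 2 subunits of the peptide transporter, was at 17.3, 16.4, 21.8 and 17.6 CPM in DMSO and at 13.7, 10.1, 14.6 and 11.9 CPM in Btz. These did not overlap, and the log2 fold change was −0.54 (SE 0.162, adjusted p = 0.0053). Annotated PSMB9 transcripts on the opposite strand overlap the 3′ end of TAP1, where reads of both genes could not be told apart without strand.

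B2M, the light chain shared by all class I molecules, had 387, 399, 427 and 420 CPM in DMSO. In Btz it had 384, 322, 317 and 384 CPM. The highest Btz library lay just below the lowest DMSO library, and the log2 fold change of −0.21 (SE 0.132, 95% interval −0.48 to 0.05, adjusted p = 0.18) was not called. A model of the 2 groups alone gave −0.24 with an adjusted p of 0.0058, a model with no filter on low counts −0.29 with 0.0091, and scaling by library totals −0.71 with 1.7e-05.

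HLA-B, a class I heavy chain, was at 43.9, 39.1, 39.9 and 34.2 CPM in DMSO and at 88.8, 86.5, 99.1 and 89.9 CPM in Btz. Every Btz library was above every DMSO library by a wide margin. The log2 fold change was 1.21 (SE 0.101, adjusted p = 4.8e-12), or 2.32-fold. HLA-C, the second heavy chain followed, had 44.6, 44, 52.5 and 51.2 CPM in DMSO against 112, 90.4, 94.6 and 128 CPM in Btz. It too rose without overlap, by 1.14 (SE 0.157, adjusted p = 2.1e-07), or 2.21-fold. The last 500 bases of the canonical HLA-B and HLA-C transcripts aligned to each other with 93.0% identity, so a share of reads may be split between the rows.

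**Figure D1:**
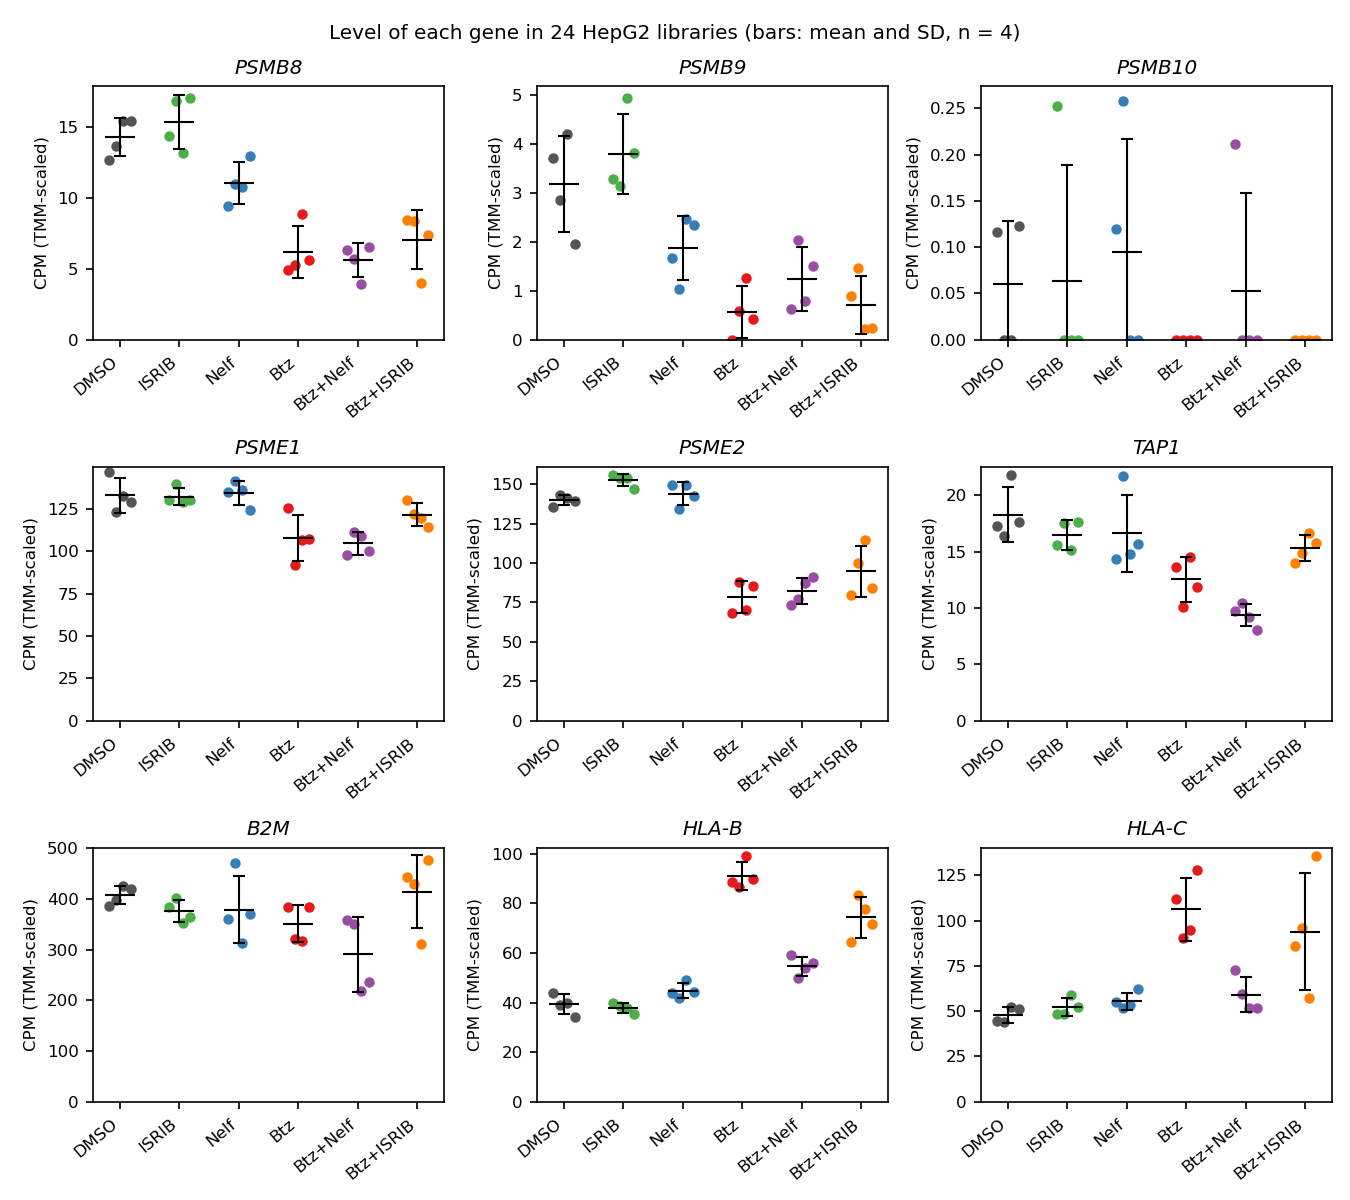
CPM of each of the 9 genes (vertical axis, TMM-scaled, starting at 0) in the 24 libraries by treatment group (horizontal axis). Points are libraries and bars are the mean and SD of 4. PSMB8 and PSME2 sit lower in all bortezomib groups than in the other groups, HLA-B and HLA-C are highest with bortezomib alone or with ISRIB, and PSMB10 stays under 0.3 CPM.

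With library totals alone the 7 calls kept their directions and B2M was called lower too, so 6 of 8 members were lower beside 49.4% of all tested genes, and 2 higher beside 11.7%. Each value moved down, with HLA-B at 0.71, HLA-C at 0.64, PSMB8 at −1.71, PSME1 at −0.80, PSME2 at −1.34 and TAP1 at −1.04. PSMB9 was at −2.92 on that scale.

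**Figure D2:**
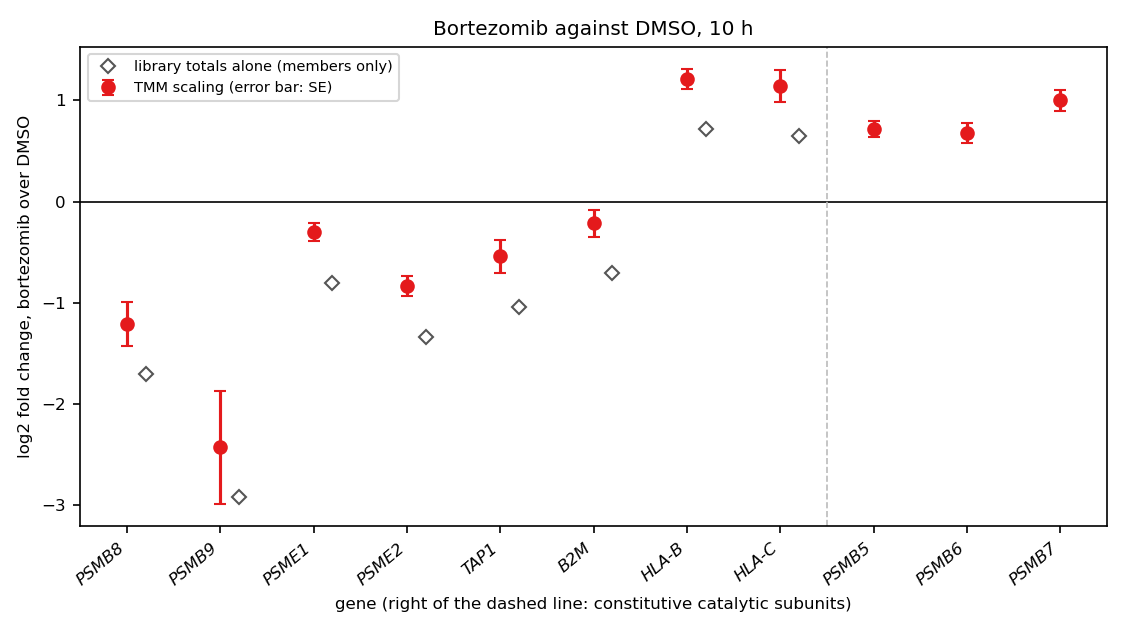
Log2 fold change of Btz over DMSO (vertical axis) for 8 of the genes followed and, right of the dashed line, the 3 standard catalytic subunits. Filled points carry the SE of the edgeR fit and open diamonds give the value with library totals as the only scaling, which moves every one of the 8 down and turns none of the 7 called ones.

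The standard subunits that PSMB8, PSMB9 and PSMB10 replace rose under bortezomib. PSMB5 went from 179 ± 10.3 to 295 ± 10.2 CPM (SD, n = 4 each), or 0.72 on the log2 scale (SE 0.0773, adjusted p = 1.5e-09). PSMB6 rose by 0.68 and PSMB7 by 1.00 on the same scale, with adjusted p of 5.1e-07 and 5.7e-10. The list of other subunits, regulators and assembly factors of the standard proteasome held 32 genes. Of these, 32 were called higher and 0 lower, beside 27.6% and 25.8% of all tested genes. Their median was 1.04, and 18 rose more than 2-fold. PSMB1, a non-catalytic β subunit, had the largest change, from 277 ± 26 to 1659 ± 121 CPM, or 2.58 (adjusted p = 2.2e-20). The list holds PSME3 and PSME4, activators other than PA28αβ, which rose by 0.42 and 1.02. Thus PSME1 and PSME2 were called in one direction and PSME3 and PSME4 in the other. PSME3 and PSME4 were named after their values were seen.

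Because both members of a catalytic pair are counted in the same library, the log2 ratio of the inducible to the standard subunit does not depend on the scaling. PSMB8 made up 7.39% ± 0.332 of the reads of PSMB8 and PSMB5 in DMSO and 2.05% ± 0.624 in Btz, and PSMB9 made up 2.12% ± 0.612 of the reads of its pair with PSMB6 in DMSO and 0.237% ± 0.222 in Btz (SD, n = 4). The log2 ratio, with 0.5 added to each count, differed between Btz and DMSO by −1.95 (SE 0.2) for PSMB8 to PSMB5 and by −3.38 (SE 0.774) for PSMB9 to PSMB6. Libraries of the groups did not overlap, and a two-sided exact permutation test gave p = 0.0286 for each, the smallest that 4 against 4 allows. Adjusted over 21 ratio tests, which include those of PSMB10 to PSMB7, the value was 0.075, so neither passed the threshold. Because p could not go below 0.0286, missing that threshold shows little about the ratios. With Nelf alone the PSMB8 share was 5.38% ± 0.476 and the PSMB9 share 1.01% ± 0.349, with ratio differences of −0.49 and −1.08 from DMSO and the same exact permutation p = 0.0286. With ISRIB alone the differences were −0.09 and 0.15, with exact permutation p = 0.49 and 0.57. The ratio of PSMB10 to PSMB7 was set by the added 0.5 and is not given.

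**Figure D3:**
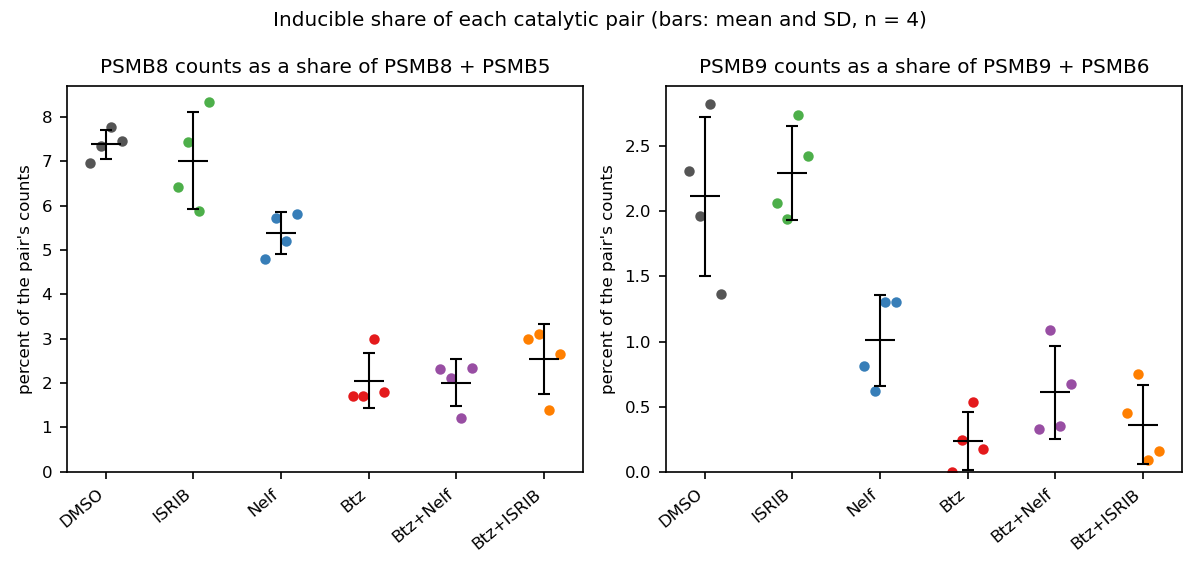
Reads of PSMB8 as a percent of PSMB8 and PSMB5 reads (left) and of PSMB9 as a percent of PSMB9 and PSMB6 reads (right), by treatment group. Points are libraries and bars are the mean and SD of 4. The PSMB8 share was 7.39% in DMSO, 5.38% in Nelf and 2.05% in Btz.

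Of 18 other genes of the class I pathway, 15 were tested. With bortezomib 6 were called higher and 1 lower, beside 27.6% and 25.8% of all tested genes. Their median log2 fold change was 0.21. MICB, a stress-induced ligand of the NKG2D receptor, rose most, from 24.1 ± 1.43 to 87.9 ± 9.58 CPM, or 1.87 (adjusted p = 4.3e-14). Its relative MICA rose by 1.61. The non-classical HLA-E, at 0.54, and the chaperones CANX, at 0.80, and CALR, at 0.21, were also called higher. ERAP2, a peptide-trimming aminopeptidase, fell by 0.84. TAP2, the partner of TAP1, was at −0.05, and the loading factors TAPBP and PDIA3 were at −0.14 and 0.22, none of them called. These genes were named after their values were seen, except MICB and ERAP2, which were named as the largest in each direction.

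Other interferon targets were mostly called lower or not called. Of 26 tested, 14 were called lower and 2 higher, beside 25.8% and 27.6% of all tested genes. Their median was −0.69 beside 0.0017 over all tested genes, and 9 fell more than 2-fold. With library totals as the only scaling, 49.4% of all tested genes were called lower. This list is not counted here at that scaling. USP18, which removes ISG15 and damps the type I interferon receptor, showed the largest fall, from 2.56 ± 0.461 to 0.323 ± 0.372 CPM, or −2.95 (SE 0.661). Its SD in Btz was above its mean, so the size of that fall is uncertain. The ubiquitin-like modifier ISG15 itself was at −1.28 and the dNTPase SAMHD1 at −1.34, both called and both named after their values were seen. The 2 called higher were IFI6 at 0.38 and PARP14 at 0.29.

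Among 28 regulators of these genes 22 were tested, with a median of −0.08. Of these, 7 were called higher and 7 lower, beside 27.6% and 25.8% of all tested genes. IRF2, an interferon regulatory factor, fell most, by 1.30, and IRF1, an activator of PSMB9 and TAP1 transcription in textbook accounts, fell from 15.3 ± 0.570 to 9.92 ± 1.09 CPM, or by 0.62 (SE 0.194, adjusted p = 0.0073 by edgeR). IRF9, the DNA-binding subunit of ISGF3, rose most, by 1.61, from 1.22 to 3.8 CPM, and the NF-kB subunits NFKB2, RELB and RELA rose by 1.57, 1.14 and 0.45. The class I transactivator NLRC5 had 5 reads in all 24 libraries, TNF 4 and IFNL1 2, so these could not be tested at this depth. IFNG and IFNB1 had no row. IRF1, NFKB2, RELB and RELA were named after their values were seen, and a link of IRF1 to PSMB9 or TAP1 was not tested.

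**Figure D4:**
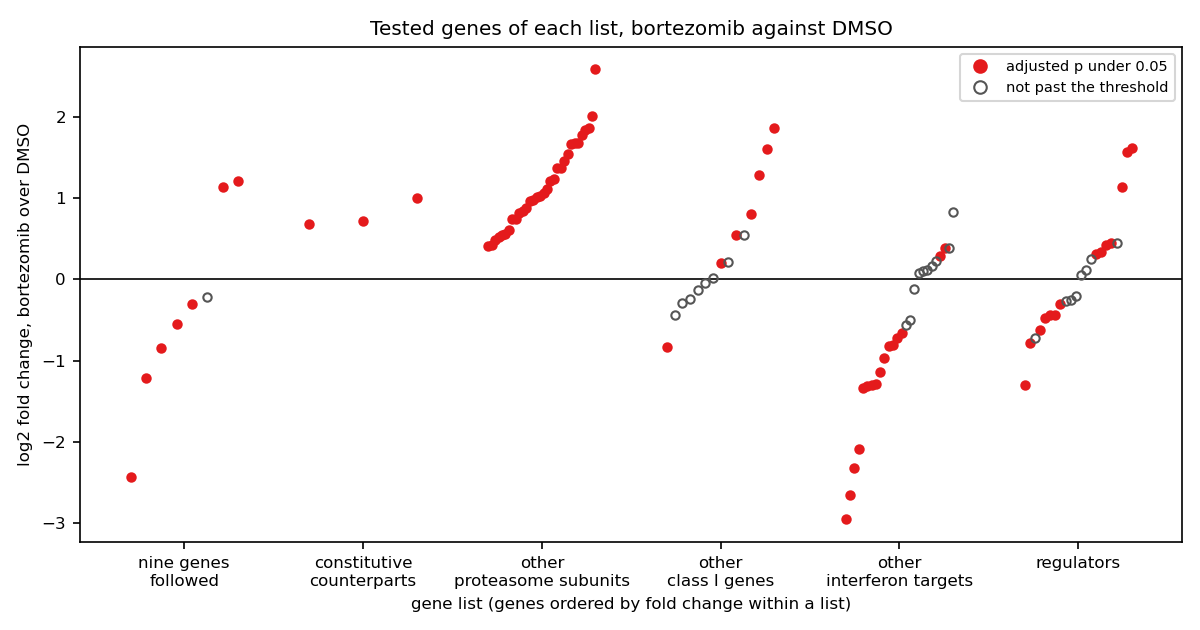
Log2 fold change of Btz over DMSO (vertical axis) for each tested gene, by list (horizontal axis, ordered by value within a list). Filled points passed an adjusted p of 0.05. The 32 other proteasome subunits all lie above 0, while 14 of 26 other interferon targets were called lower, beside 25.8% of all tested genes.

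The second question was what nelfinavir or ISRIB did alone. With nelfinavir, 0 of the 8 members were called by edgeR, against 8.84% of all tested genes called lower and 10.4% higher, and 0 had an unadjusted p under 0.05. PSMB8 was at 9.44, 11, 10.8 and 13 CPM, with only the highest library inside the DMSO range. Its log2 fold change was −0.37 (95% interval −0.77 to 0.03, adjusted p = 0.21), and a model of the 2 groups alone called it, at −0.38 (adjusted p = 0.042 by edgeR). PSMB9 was at −0.76 with an interval of −1.65 to 0.14. HLA-B at 0.19 and HLA-C at 0.21 had intervals of −0.02 to 0.39 and −0.11 to 0.53. These intervals do not include the rises seen with bortezomib.

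PSMB6, the standard partner of PSMB9, rose with nelfinavir alone by 0.32 (SE 0.0975, adjusted p = 0.016), which enters the PSMB9 to PSMB6 ratio given above, and PSMB5 and PSMB7 were not called. Of 32 other proteasome subunits 3 were called lower, with PSMD12 the largest at −0.65, and 1 higher, PSMD8 at 0.31. Among 22 regulators 1 was called lower, NFKBIA at −0.58, and 2 higher, with IFNGR2 the largest at 0.48. In the other lists, nelfinavir alone lowered 3 of 15 class I genes, with ERAP2 the largest at −0.95. It also lowered 3 of 26 interferon targets, with GBP1, a guanylate-binding protein, the largest at −2.41. Over all tested genes 8.84% were called lower. With ISRIB alone, 0 of the 8 members and 0 of 12685 genes were called by edgeR, which is 0% in either direction. Of all genes 703 had an unadjusted p under 0.05. DESeq2 called 18 lower and 1 higher, edgeR with no filter 34 and 5, and edgeR on only the groups compared 76 and 4. Members' log2 fold changes with ISRIB ran from −0.15 for TAP1 to 0.25 for PSMB9. PSME2 was at 147 to 156 CPM with ISRIB, above all 4 DMSO libraries, with a value of 0.13 (interval −0.07 to 0.33) that was not called.

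The third question was how the response to bortezomib changed when a second drug was added. Both co-treatments are compared with the same 4 Btz libraries. With nelfinavir added, HLA-B and HLA-C were called lower than with Btz alone and none of the 8 was called higher, beside 13.4% of all tested genes called lower and 15.6% higher. HLA-B was at 59.0, 49.7, 53.8 and 55.9 CPM, between the DMSO and the Btz libraries without overlapping either. Its log2 fold change against Btz was −0.74 (SE 0.101, adjusted p = 1.2e-06). HLA-C was at 72.7, 59.7, 51.9 and 52.0 CPM, and all 4 libraries were below the Btz ones. It fell by 0.85 (SE 0.158, adjusted p = 0.00011).

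None of the inducible proteasome genes or activator subunits was called. PSMB8 was at 6.34, 5.68, 3.93 and 6.57 CPM, within or just below the Btz range, with a difference of −0.13 from Btz and an interval of −0.63 to 0.37. PSME2, at 73.6 to 91.4 CPM, differed by 0.08 (interval −0.14 to 0.29). PSMB9 had 3, 9, 4 and 8 reads and a difference of 1.08 (SE 0.648, adjusted p = 0.22), whose interval of −0.24 to 2.40 is too wide to tell a rise from none. TAP1, at 9.72, 10.4, 9.23 and 8.07 CPM, was lower than Btz by a value that was not called, −0.42 (adjusted p = 0.072), and B2M was at −0.27 (adjusted p = 0.12). Upper-quartile factors called TAP1, at −0.47 (adjusted p = 0.046 by edgeR), and leaving out the first library of Btz with Nelf called B2M, at −0.35 (adjusted p = 0.0495 by edgeR). B2M split within this group, at 358 and 352 CPM in the first pair of libraries and 218 and 237 CPM in the other pair. The same pairs differed in their share of mitochondrially encoded genes, at 28.5% and 29.6% against 24.9% and 25.6%. A link between these was not tested. Of the 15 other class I genes 7 were called lower and 3 higher. HFE, an iron-regulatory class I-like protein, fell most, by 1.73, and CALR rose most, by 0.69. Of 32 other proteasome subunits, 11 were called lower and 3 higher than with Btz alone.

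Adding ISRIB to bortezomib gave no call among the 8 members, beside 5.34% of all tested genes called lower and 6.91% higher. HLA-B was nearest, at 64.3, 83.3, 77.7 and 71.8 CPM, all below the Btz libraries, and −0.29 on the log2 scale (SE 0.1, adjusted p = 0.051). DESeq2 and 5 other settings called it. HLA-C scattered widely, at 86.2, 96.1, 57.5 and 136 CPM, and its difference of −0.18 had an interval of −0.50 to 0.13. TAP1 was at 14, 14.9, 16.6 and 15.8 CPM, 3 of the 4 above every Btz library, at 0.29 (interval −0.06 to 0.64). PSME2 was at 79.9, 100, 115 and 83.9 CPM, with a difference of 0.28 (adjusted p = 0.076). Here 2 members had an unadjusted p under 0.05, HLA-B and PSME2.

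The co-treatments were also compared with the second drug alone, which gives the effect of bortezomib on another baseline. With Nelf as the baseline, 5 members were called lower and 1 higher, against 28.4% and 28.7% of all tested genes. PSMB8 fell by 0.97, PSME1 by 0.36, PSME2 by 0.81, TAP1 by 0.83 and B2M by 0.38 (adjusted p = 0.014), while PSMB9 was at −0.60 and not called (interval −1.64 to 0.45). HLA-B was at 0.29 (adjusted p = 0.016) and HLA-C at 0.09 (adjusted p = 0.66), and with library totals alone both turned to −0.22 and −0.42, the latter called with an adjusted p of 0.015. At that scaling 51.4% of all tested genes were called lower and 12.5% higher. The B2M call was lost without the second Nelf library, at −0.26, and without the third library of Btz with Nelf, at −0.29. The HLA-B call was lost without the second Nelf library (0.25) or the first of Btz with Nelf (0.25).

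With ISRIB as the baseline, 3 members were called lower and 2 higher, against 25.6% and 29.1% of all tested genes. PSMB8 fell by 1.12, PSMB9 by 2.37 and PSME2 by 0.69, and HLA-B rose by 0.97 and HLA-C by 0.85, though the HLA-C libraries overlapped. PSME1 at −0.12, TAP1 at −0.11 and B2M at 0.14 were not called. With library totals alone, PSME1, TAP1 and B2M were called lower, at −0.66, −0.65 and −0.41, and HLA-C, at 0.30, was no longer called. At that scaling 50.4% of all tested genes were called lower and 12.1% higher. PSME1 was also called with upper-quartile factors, at −0.21 (adjusted p = 0.037 by edgeR).

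**Figure D5:**
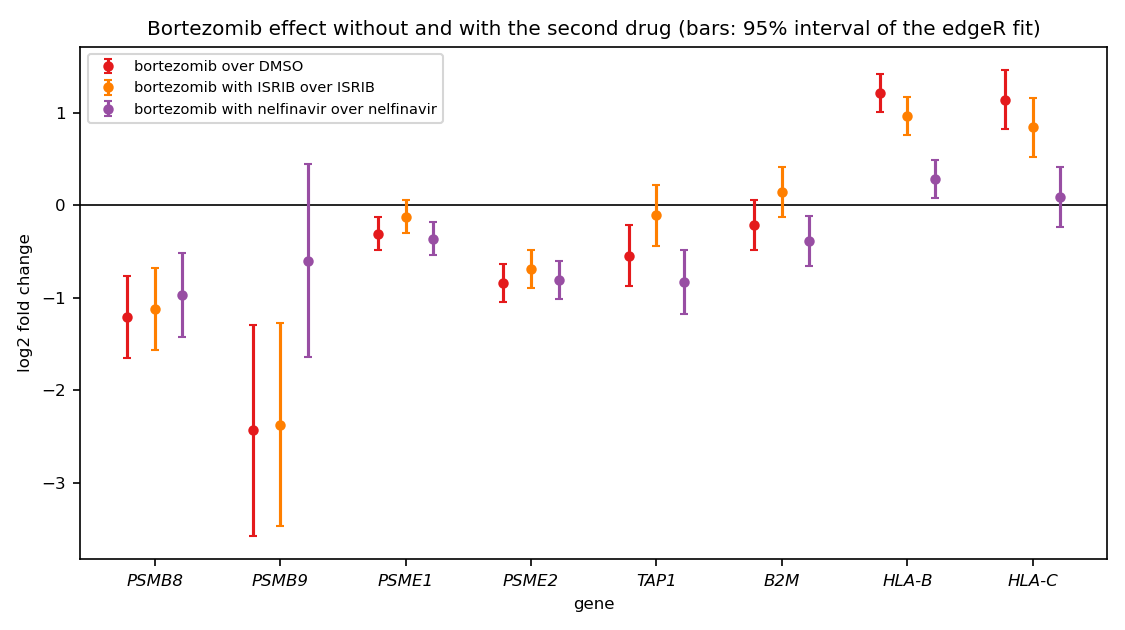
Log2 fold change on adding bortezomib (vertical axis) for 8 genes, over DMSO, over ISRIB and over Nelf. Bars are the 95% interval of the edgeR fit on 4 libraries a group. The HLA-B value is 1.21 over DMSO, 0.97 over ISRIB and 0.29 over Nelf, while PSMB8 and PSME2 have intervals below 0 in all 3.

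The interaction term tests whether bortezomib acted differently in the presence of the second drug. For nelfinavir it was called for HLA-B, at −0.92 (SE 0.143, adjusted p = 1.2e-05), and HLA-C, at −1.05 (SE 0.223, adjusted p = 8e-04), both lower, and for 0 members higher, beside 10% of all tested genes called lower and 9.74% higher. For PSMB8 it was 0.24 (interval −0.40 to 0.88), for PSME2 0.03 (interval −0.26 to 0.32) and for TAP1 −0.29 (interval −0.76 to 0.19). PSMB9 had the largest positive value, 1.84 (SE 0.783, adjusted p = 0.096), and was called, at 2.58 (adjusted p = 0.033), only when the third Btz library was left out. PSMB6, the standard partner of PSMB9, had an interaction of −0.51 (adjusted p = 0.0074), and PSMB5 and PSMB7 were not called. For ISRIB, 0 of the 8 members were called by edgeR and 0 had an unadjusted p under 0.05, beside 1.89% of all tested genes called lower and 2.93% higher. DESeq2 also called 0. The ISRIB interaction was −0.24 for HLA-B (interval −0.53 to 0.05), 0.44 for TAP1 (interval −0.03 to 0.90) and 0.36 for B2M (interval −0.02 to 0.74).

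The genes whose log2 CPM ran most like each member over the 24 libraries were found by Pearson's r, as a description, since the libraries share their treatment groups. HLA-B was most like CYB5R1 (r = 0.96), EAPP and MTG2, and HLA-C like CRK (0.91), UBE2G1 and SPTAN1. PSMB8 was most like ALDH7A1 (0.96), an aldehyde dehydrogenase of lysine catabolism, then SDC1 and NAPEPLD. PSME2 was most like ATP6V0E2 (0.97), SLC9A3R1 and SMIM4, and PSME1 like THRB (0.88), MYADM and ZCRB1. PSMB9 was nearest to CCDC170 (0.91), GIP and DTX4, TAP1 to PLA2G2A (0.88), SPP1 and TFPI, and B2M to CSTB (0.91), ALB and USMG5. No member was among the 3 nearest of another, HLA-B and HLA-C included.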

How the data were processed

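RNA of HepG2 cells in 6 treatment groups of 4 libraries was measured by 3′ mRNA-Seq (QuantSeq FWD). The authors trimmed reads with cutadapt 2.8, aligned them to hg19 with STAR in an nf-core workflow and counted them on Ensembl GRCh37 genes. The deposited values are raw counts per gene. Not given in the sources used here are the counter, its strand setting and whether molecular identifiers were used, so errors of single counts cover counting error only. Their ambiguous-read rule could change rows that share 3′ ends.

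Here, filterByExpr was run with a minimum count of 5 and a minimum total of 25, and the genes it left were scaled by TMM and tested with edgeR 4.0.16 in R 4.3.3, all 24 libraries in 1 model, with Benjamini-Hochberg adjustment and a threshold of 0.05. Alternatives were DESeq2 1.42.0, other scalings and filters, only the groups compared, a replicate block and each library left out. Pair ratios used a two-sided exact permutation test.

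The members and lists were chosen with earlier results of these data known. Named genes are all members, the standard subunits, the largest called gene per list and direction, the 3 most alike genes, and others said to be picked on their values. Replicate numbers were not used to pair libraries. Of 60 same-number pairs 10 correlated above 0.1, against 7 of 180 others, with median r of 0.013 and −0.0064. Some sharing by number was therefore possible, and a fit with a replicate block is given below. The edgeR fit was run on simulated counts with known changes in a small set of genes, raised and lowered alike. That run did not test the scaling under changes as broad as those with bortezomib. Positions come from GENCODE on GRCh37. Values of 2 genes of the lists are not reported here.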

Additional observations from a re-analysis of the deposited data

Results flagged for a closer look

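The interaction of nelfinavir with bortezomib differed from 0 for 2 members: HLA-B at −0.92 and HLA-C at −1.05 on the log2 scale (edgeR, adjusted p = 1.2e-05 and 8e-04), so that the rise with bortezomib was smaller in the presence of nelfinavir. All 4 libraries of Btz with Nelf were below all 4 Btz libraries for both genes. As a test of single libraries, the gap of the highest or lowest of 4 to its neighbour was compared with the range of its group, a rule that chance alone meets in about 1 of 20 groups. It met 3 times: PSME1 in the second ISRIB library, at 140 CPM, and PSMB10 in the first ISRIB library, at 0.252 CPM, and in the first library of Btz with Nelf, at 0.211 CPM. The last pair stand for 2 reads and 1 read.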

How the results depend on the processing

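A sign change is counted only where a value was called in the reported or the alternative fit. Bortezomib against DMSO kept 2 members higher and gave 5 lower, or 6 with B2M added under library totals alone, no filter or only the groups compared. HLA-B in Btz with ISRIB against Btz made that count of lower members 1 in place of 0 with RLE, upper-quartile or library-total scaling, TMM without mitochondrially encoded genes, the default filter of edgeR and DESeq2. In Btz with Nelf against Nelf, the count of higher members (1, HLA-B) was 0 with upper-quartile or library-total scaling and with no filter. In the fit of only the groups compared, nelfinavir against DMSO had 1 lower member, PSMB8, in place of 0. With library totals alone, Btz with ISRIB against ISRIB had 6 lower members in place of 3 and 1 higher in place of 2, beside 50.4% and 12.1% of all tested genes, and 3 values changed sign: HLA-B (−0.22) and HLA-C (−0.42) in Btz with Nelf against Nelf, and B2M (−0.41) in Btz with ISRIB against ISRIB. Library totals shift every value of a comparison alike, and for the other settings the cause was not tested.

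Leaving out 1 library at a time gave ranges of 0 to 1 for higher members in Btz with Nelf against Nelf (0 without the second Nelf or the first Btz with Nelf library), in the nelfinavir interaction (1, PSMB9, without the third Btz library) and in Btz with ISRIB against Btz (1, PSME2, without its first library), and of 0 to 1 for lower members there (1, HLA-B, without its second library). Calls gained by single members were TAP1 (−0.47) and, without its first library, B2M (−0.35), both in Btz with Nelf against Btz, and PSME1 (−0.21) in Btz with ISRIB against ISRIB, TAP1 and PSME1 with upper-quartile factors. A replicate block, which the reported fit does not have, left the counts of bortezomib against DMSO at 5 and 2 and changed no other count of members. PSMB9 missed the filter in 2 of the fits of only the groups compared. The PSMB8 and PSMB9 pair ratios moved by less than the spread between libraries, or kept their side of the threshold, with 1 added to each count or a library left out. No ratio passed the adjusted threshold in the reported fit. The exact permutation p could not go below 0.0286 with 4 against 4, so keeping that side shows little. Counts near 0 reads limit PSMB9 and PSMB10.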
